A study of Mus musculus with 46 samples.

Results

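The 9 genes described here encode ligands and secreted antagonists of the transforming growth factor beta (TGF-beta) superfamily, and they were followed across 7 types of inhibitory neuron from mouse frontal cortex. They are Tgfb1, Tgfb2, Tgfb3, Gdf10, Bmp2, Bmp3, Bmp4, Nog and Grem1, chosen by name as 9 of the 23335 gene rows in the deposited table. The study dissociated brain slices, isolated single neurons that expressed a red fluorescent protein from driver crosses, and sequenced 584 of them in 46 libraries, each holding 7 to 16 cells under separate barcodes. All mice were labelled wild type apart from the driver and reporter alleles, and 1 statement of tamoxifen given at embryonic day 17.5 stands on every sample, although it names the inducible Nkx2.1-CreER driver only.

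Martinotti cells (Sst-Flp; CR-Cre; Ai65, layer 2/3) came from 2 female animals at postnatal day 35, with 62 cells in 4 libraries. Interneuron-selective cells (Vip-Flp; CR-Cre; Ai65, layer 2/3) came from 2 female animals at day 32, with 63 cells in 4 libraries. CCK basket cells (Vip-Flp; CCK-Cre; Ai65, layer 2+3) came from 2 male animals at days 39 and 40, with 64 cells in 4 libraries. PV basket cells (Pv-iresCre; Ai14, all layers) came from 4 labelled animals of both sexes at days 58 to 83, with 127 cells in 16 libraries. Upper chandelier cells (Nkx2.1-CreER; Ai14) came from the border of layer 1 in the infralimbic and prelimbic areas of 2 female animals at days 40 to 58, with 80 cells in 5 libraries, 1 of which is labelled Ai15. Deep chandelier cells (Nkx2.1-CreER; Ai14) came from layers 5 and 6 of 2 male animals at day 34, with 52 cells in 4 libraries. Long-projecting cells (Sst-Flp; Nos1-Cre; Ai65, no layer given) came from 4 male animals at days 28 and 29, with 136 cells in 9 libraries. Each type is thus defined by a driver cross rather than by a measured property, and type goes with age, sex and, for most types, flow cell. There were 2 flow cells that held 2 types each, one with Martinotti and interneuron-selective libraries and the other with those of upper chandelier and long-projecting cells. On the first, all animals were female and ages differed by 3 days; on the second, upper chandelier animals were female and older and long-projecting animals male and younger, so age and sex still went with type. Any other 2 types differed in flow cell, and their ages met only at day 40 (CCK basket and upper chandelier) and day 58 (upper chandelier and PV basket). CCK basket, deep chandelier and long-projecting animals were all male. Martinotti, interneuron-selective and upper chandelier animals were all female. For every other comparison type cannot be told apart from age and flow cell, nor, where sex differed, from sex.

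TGF-beta superfamily ligands are secreted dimers that bring together type I and type II receptor kinases on the receiving cell, which then phosphorylate SMAD proteins that enter the nucleus. TGF-beta and activin ligands act mainly through SMAD2 and SMAD3, and bone morphogenetic proteins (BMPs) through SMAD1, SMAD5 and SMAD9. Extracellular antagonists such as noggin and gremlin bind BMPs and keep them from their receptors. In the brain these signals pattern the early neural tube and later act on neuronal migration, dendrites, synapses and glia.

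For 3 of the ligand genes that were high in deep chandelier cells, the 250 bases before the RefSeq transcription start are shown, so that the sequence next to each start can be set beside the levels (build GRCm38.p6, 5′ to 3′ in the direction of transcription). Capitals mark the TATA box, E-box and GC box letters spelled out after the sequences, on either strand. They lie at chr1:186705990-186706239 on the minus strand for Tgfb2, at chr14:33923337-33923586 on the plus strand for Gdf10 and at chr14:46390670-46390919 on the minus strand for Bmp4.
Tgfb2: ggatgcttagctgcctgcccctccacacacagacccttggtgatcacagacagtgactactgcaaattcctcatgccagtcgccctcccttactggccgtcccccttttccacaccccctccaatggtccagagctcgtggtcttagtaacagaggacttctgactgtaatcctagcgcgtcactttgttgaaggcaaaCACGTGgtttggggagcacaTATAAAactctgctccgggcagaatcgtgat
Gdf10: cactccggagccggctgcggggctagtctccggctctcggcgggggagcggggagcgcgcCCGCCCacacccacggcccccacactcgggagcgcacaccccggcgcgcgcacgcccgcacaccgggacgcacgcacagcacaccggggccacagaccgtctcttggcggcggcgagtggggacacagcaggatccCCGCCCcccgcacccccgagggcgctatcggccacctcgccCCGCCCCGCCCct
Bmp4: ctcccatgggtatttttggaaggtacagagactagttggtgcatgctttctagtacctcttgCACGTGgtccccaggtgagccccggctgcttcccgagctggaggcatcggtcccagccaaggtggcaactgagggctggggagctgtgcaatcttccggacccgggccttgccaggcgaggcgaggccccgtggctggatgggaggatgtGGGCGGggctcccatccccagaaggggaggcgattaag
Tgfb2 had 1 TATA box (TATAAA), starting 31 bases before the start site, and 1 E-box (CACGTG) starting 51 bases before it. Gdf10 had no TATA box and no E-box but 4 GC boxes (GGGCGG), the last pair of which overlap by 1 base. Bmp4 had 1 E-box starting 188 bases and 1 GC box starting 38 bases before the site. Of 32851 promoter windows of the same length, 12.4% held TATAAA, 6.02% CACGTG and 32.7% GGGCGG on either strand. The cyclic AMP response element TGACGTCA, held by 1.55% of windows, was in none of the 3. No searched motif was thus in all 3 windows, which says only what these letters are.

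Levels are given as CPM, the counts of a gene scaled to the total of its library, and type means are taken over replicates. A replicate is a labelled animal, except in PV basket cells, where animals 7 and 8 form 1 replicate and animals 9 and 10 another because their libraries agree in pairs almost within sampling noise. By the labels, both libraries of each such pair carry the same index on neighbouring lanes. The 16 PV basket libraries may therefore not all be independent, and counts of them below are of labelled libraries. This left 16 replicates, n = 4 for long-projecting cells and n = 2 for each other type. Libraries held 530927 to 4568242 counts. These levels compare a gene between libraries, not a gene with another gene, since no length scaling applies.

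**Figure D1:**
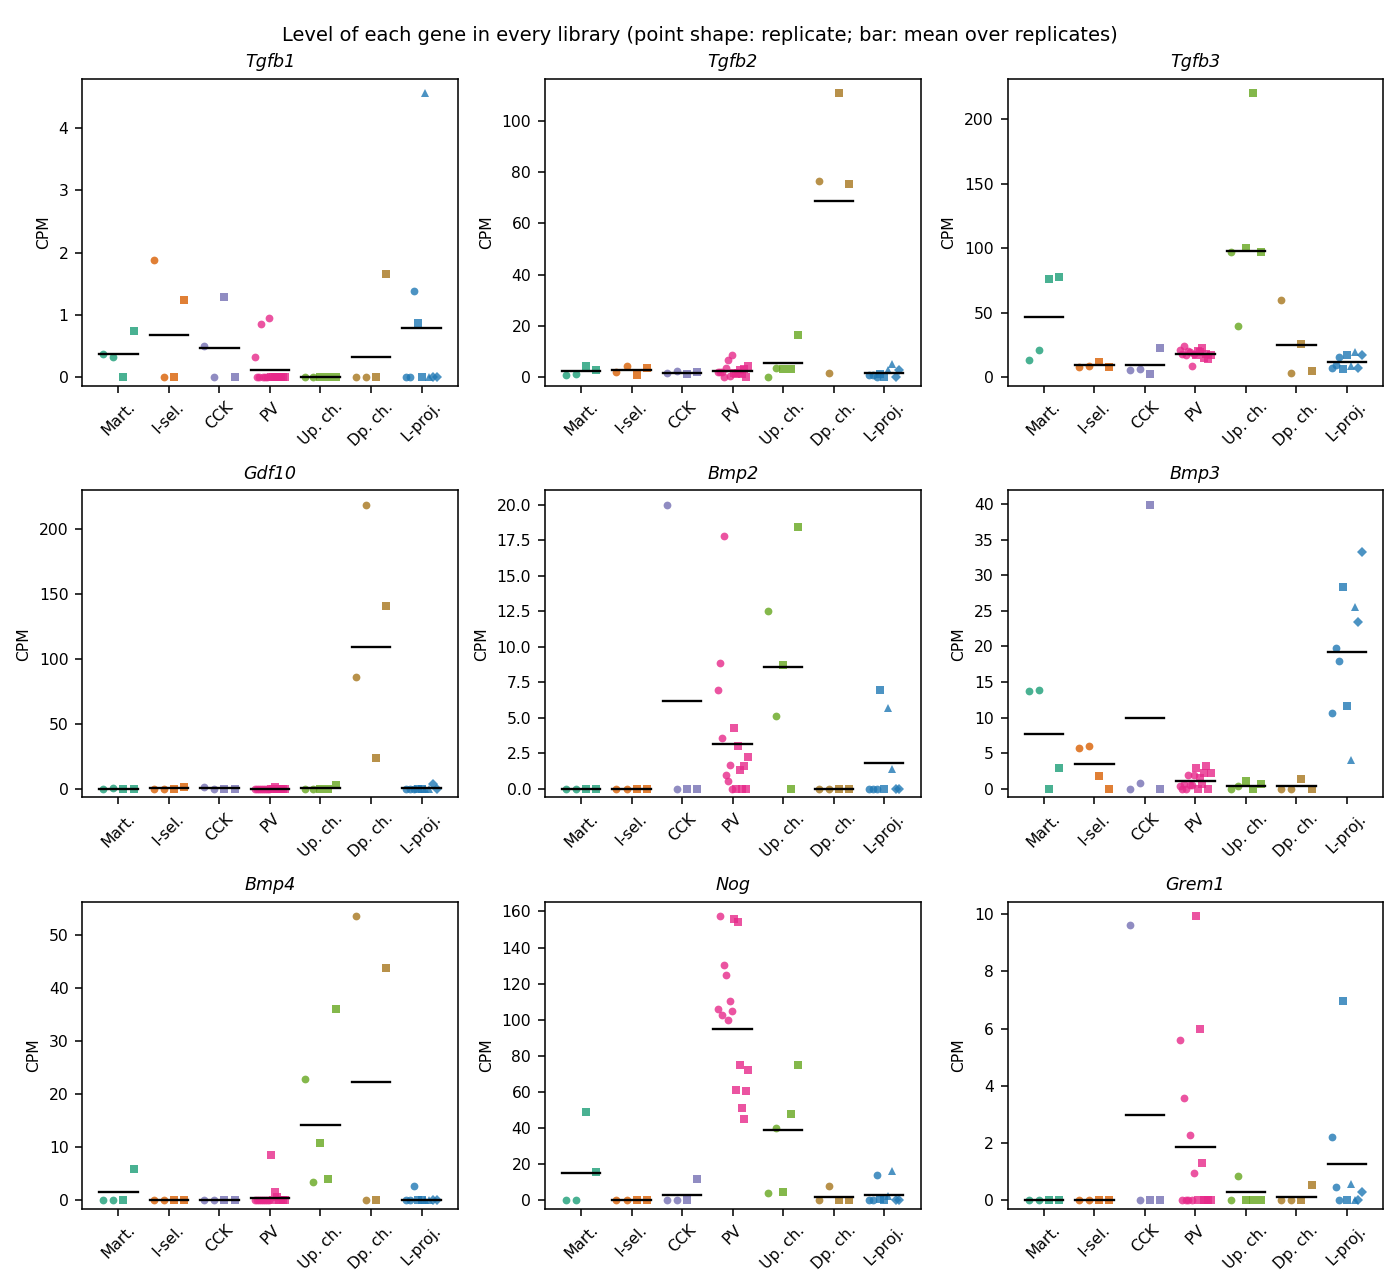
Level of each of the 9 genes (y axis, CPM, linear, with its own range per gene) in every library of the 7 types (x axis: Martinotti, interneuron-selective, CCK basket, PV basket, upper chandelier, deep chandelier, long-projecting). Each point is 1 library, point shapes separate replicates within a type and black bars are means over replicates. Gdf10 counts stand almost wholly in the 4 deep chandelier libraries, and Nog lies at 45.2 CPM or above in all 16 PV basket libraries.

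The labels were checked against marker genes before the levels were read. The 6 GABAergic markers (Gad1, Gad2, Slc32a1 and others) summed to between 2056 and 7581 CPM in every library. The drivers followed the labels in most libraries: Sst stood at 1080 CPM or above in all Martinotti and long-projecting libraries and Vip at 3581 CPM or above in all CCK basket libraries. Vip stood at 2115 CPM or above in all interneuron-selective libraries and Pvalb at 778.2 CPM or above in all PV basket libraries. Calb2, which encodes calretinin, stood at 33.7 to 195.5 CPM in Martinotti libraries and 338.5 to 659.2 CPM in interneuron-selective libraries. Without CR-Cre in the cross, it also stood at 53.6 to 377.5 CPM in long-projecting libraries and at 136.5 and 134.0 CPM in CCK basket libraries 3 and 4. Cck reached 1113 CPM in interneuron-selective library 2. Nos1 stood at 96.8 to 208.1 CPM in long-projecting libraries and at 45.4 CPM in deep chandelier library 3, against 24.1 CPM or less in all others. Deep chandelier libraries departed from one another. Library 4 held 1918 CPM of Vip and 1375 CPM of Cck, against 3581 to 5118 CPM of Vip and 1235 to 3247 CPM of Cck in the CCK basket libraries, and library 1 held no Pvalb count, against 165 to 553 CPM in libraries 2 to 4. Nkx2-1 was at 15.0 to 60.2 CPM in the deep chandelier libraries and 16.3 to 21.6 CPM in the CCK basket libraries, against 48.0 to 108 CPM in the upper chandelier libraries. Upper chandelier library 1 held 374 CPM of Vip, with 0 in the other 4. Oligodendrocyte markers (8 genes) summed to 3008 CPM in interneuron-selective library 3 and 4331 CPM in long-projecting library 2, against 259 CPM or less in all other libraries. Astrocyte markers had median library sums of 302.5 CPM in long-projecting and 280.1 CPM in upper chandelier cells, against 59.8 CPM in Martinotti and in deep chandelier cells. Excitatory neuron markers summed to up to 380.8 CPM, in CCK basket library 3. The part of such cells in the levels was not tested. Results on the 9 genes that rest on a deep chandelier library, upper chandelier library 1, interneuron-selective library 3 or long-projecting library 2 are given with and without it. Calls of other pathway genes in deep chandelier, upper chandelier, interneuron-selective and long-projecting cells are followed by those lost without a library. For the other types no library was left out.

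Most of these genes had their counts concentrated in 1 or 2 of the types, and the chandelier types carried the most of them. Of the 9 genes, 8 had enough counts to be tested, and 5 of these passed the joint test for any difference between the 7 types (Tgfb2, Tgfb3, Gdf10, Bmp3 and Bmp4). Across all 15533 genes tested, 25.0% passed, and the 9 genes were proposed with earlier results of these data known. The median unadjusted p was 0.00519 for the 8 genes and 0.0881 for all genes tested. Nog, Bmp2 and Grem1 did not pass, and Tgfb1 was too low to test. Against the mean of the other 6 types there were 7 calls, all of them higher in a type: Tgfb2, Gdf10 and Bmp4 in deep chandelier cells, Tgfb3 and Bmp4 in upper chandelier cells, Bmp3 in long-projecting cells and Nog in PV basket cells. The calls in deep chandelier cells are 3 of 8 genes higher, where 12.3% of all genes were. In upper chandelier cells 2 of 8 were higher, where 1.56% of all genes were, in long-projecting cells 1 of 8, where 9.71% were, and in PV basket cells 1 of 8, where 2.78% were. The fit averages the other types on the log scale, so a lower call could hardly be reached where several types had few counts. Gdf10 in PV basket cells, at 0.059 CPM against 18.5 CPM over the other 6 types, was at adjusted p = 0.361 (edgeR). That all calls were higher is therefore no result about these genes.

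**Figure D2:**
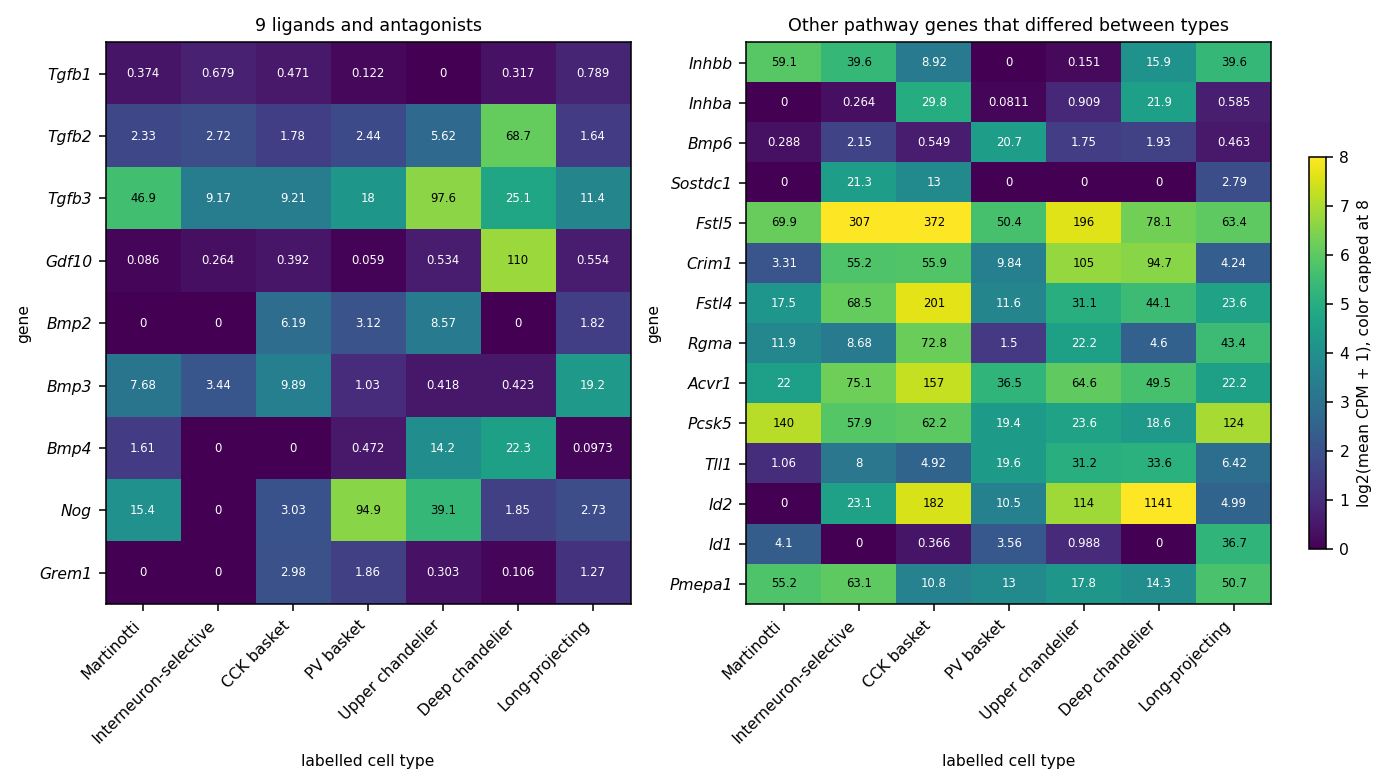
Mean CPM over replicates (numbers in the cells) in each of 7 types for the 9 ligand and antagonist genes (left) and for the other pathway genes that passed the joint test (right), colored by log2(mean CPM + 1) with the color capped at 8. Rows are genes and columns are types. Tgfb2 and Gdf10 have a single bright column, deep chandelier, at 68.7 and 109 CPM.

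Tgfb2 encodes a TGF-beta isoform that signals through SMAD2 and SMAD3 and needs betaglycan (Tgfbr3) for high-affinity binding. It stood at 76.5 CPM in library 1, 1.53 CPM in library 2, 111 CPM in library 3 and 75.2 CPM in library 4 of the deep chandelier cells. Outside that type the highest of 42 libraries was upper chandelier library 5, at 16.5 CPM, and the highest PV basket library had 8.50 CPM. Of the 4 deep chandelier libraries, 3 thus lay above every other library, and library 2 lay within the range of the other types. The type mean was 68.7 ± 40.2 CPM (SD, n = 2), against 2.75 CPM for the mean of the other 6 type means, a 24.9-fold difference. The fitted log2 fold change was 5.01 ± 0.54 (SE; edgeR quasi-likelihood test, adjusted p = 8.3e-05), and both deep chandelier replicates (40.3 and 97.1 CPM) lay above every replicate of the other types. With each deep chandelier library left out in turn, adjusted p ran between 3.67e-05 and 0.000984, and without library 4 it was 5.57e-05. In the order of type means, upper chandelier cells came next at 5.62 ± 4.51 CPM (n = 2). The remaining neighbours, between 2.72 CPM in interneuron-selective and 1.64 CPM in long-projecting cells, overlapped one another in their replicates.

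Gdf10, also called Bmp3b, encodes a ligand close to BMP3 that was found in studies of stroke in mice to promote axonal sprouting. It stood at 85.8, 219, 23.4 and 141 CPM in deep chandelier libraries 1 to 4. These 4 libraries held 731 of the 761 Gdf10 counts in the data. The other 42 libraries held 30 counts between them, 36 libraries had none, and the highest was long-projecting library 8 at 3.94 CPM. The 4 deep chandelier libraries did not overlap with any other library. Type means were 109 ± 57.6 CPM in deep chandelier cells (SD, n = 2) and 0.315 CPM over the other 6, a 348-fold difference (log2 fold change 8.79 ± 0.97 SE, adjusted p = 9.87e-05). Leaving out 1 deep chandelier library at a time gave adjusted p between 6.71e-05 and 0.000175. Neighbours below deep chandelier cells, from long-projecting (0.554 CPM) to PV basket cells (0.059 CPM), overlapped in their replicates.

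Within deep chandelier cells the libraries did not share a fixed proportion of these ligands. Library 2, with the highest Gdf10, was the one with the lowest Tgfb2, and library 3 had the lowest Gdf10 and the highest Tgfb2. Libraries 1 and 2 come from animal 11 and libraries 3 and 4 from animal 12, so the differences stood between libraries of the same animal. With 4 libraries no relation can be tested.

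**Figure D3:**
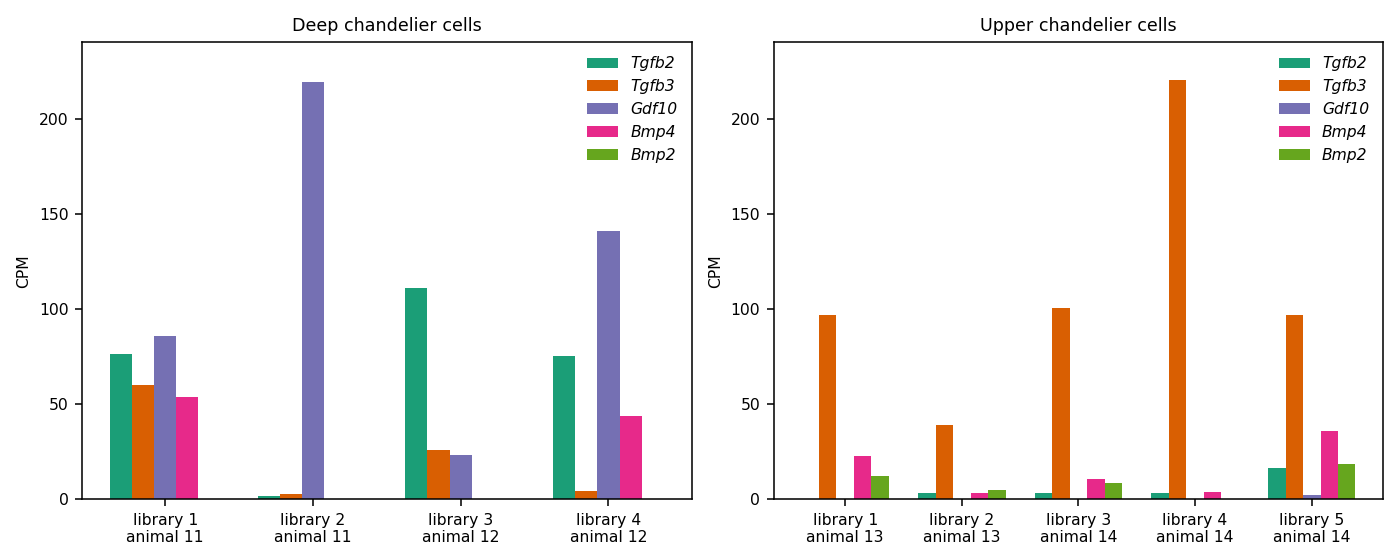
Levels of 5 ligand genes (bars, CPM on a linear axis from 0) in each of the 4 deep chandelier libraries (left) and 5 upper chandelier libraries (right), with the animal under each library. Bmp4 is high in deep chandelier libraries 1 and 4 and at 0 in libraries 2 and 3, and Tgfb3 is above 39 CPM in every upper chandelier library.

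Bmp4 encodes a BMP that signals through SMAD1, SMAD5 and SMAD9 and is known for dorsal patterning of the neural tube. In deep chandelier cells it stood at 53.6 CPM in library 1 and 43.9 CPM in library 4, with no count in libraries 2 and 3. In upper chandelier libraries 1 to 5 it stood at 22.9, 3.42, 10.9, 3.99 and 36.1 CPM. Among the other 37 libraries, 5 held a count: Martinotti library 4 at 5.89 CPM, PV basket libraries 9, 11 and 12 at 8.51, 1.49 and 0.656 CPM, and long-projecting library 3 at 2.78 CPM. Bmp4 was thus found in all 5 upper chandelier libraries and in 1 deep chandelier library of each animal. Deep chandelier cells averaged 22.3 ± 7.65 CPM (SD, n = 2) and the other 6 types 2.72 CPM, an 8.20-fold difference (adjusted p = 0.00222). Upper chandelier cells averaged 14.2 ± 7.16 CPM (n = 2) and the other 6 types 4.09 CPM, a 3.46-fold difference (adjusted p = 0.0348). These folds are ratios of means, whereas the tests average the other types on the log scale. Interneuron-selective and CCK basket cells, with no Bmp4 count, enter both averages, and no fitted fold change is given. The replicates of the 2 chandelier types overlapped. The call in deep chandelier cells kept its side of the threshold with any library left out, at adjusted p of 0.013 without library 4 and 0.02 without library 1. The joint test for Bmp4 (adjusted p = 0.0108) did not, at 0.0517 without library 4 and 0.0542 without library 1. The upper chandelier call was at 0.0498 without upper chandelier library 1, which holds Vip, and was lost in 12 of 34 alternative settings, with adjusted p of 0.329 without animal 14 and 0.114 without animal 13.

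Of the 5 other libraries with Bmp4 counts, 3 were also those in which mural and fibroblast markers (Pdgfrb, Rgs5, Kcnj8, Col1a1, Col1a2, Dcn and Lum) were highest. The 7 markers summed to 277 CPM in Martinotti library 4 and to 121 and 86.6 CPM in PV basket libraries 9 and 11. PV basket libraries 9 and 11 carry the same index on neighbouring lanes and may not be independent. In deep chandelier libraries the markers summed to 0 to 0.549 CPM, with 6 of the 7 at 0, and in upper chandelier libraries to 1.04 to 2.56 CPM. Endothelial markers summed to 0.549 to 7.66 CPM in deep chandelier libraries, with Cldn5, Itm2a and Ly6c1 at 0. They summed to 68.4 CPM in Martinotti library 4 and to 70.9 and 49.3 CPM in PV basket libraries 9 and 11. Oligodendrocyte precursor markers (Pdgfra, Cspg4, Olig1 and Olig2) summed to 2.21, 27.7 and 20.9 CPM in those libraries. In deep chandelier libraries 1 and 4 they summed to 2.14 and 10.4 CPM. The part of any such cells in the Bmp4 levels was not tested.

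Tgfb3 encodes the third TGF-beta isoform, which signals through the same receptors as Tgfb1 and Tgfb2. It had counts in all 46 libraries. Upper chandelier libraries 1 to 5 stood at 96.7, 39.3, 100.4, 220.5 and 97.0 CPM. Martinotti libraries stood at 13.0 and 20.9 CPM in animal 1 and at 75.9 and 77.3 CPM in animal 2, and deep chandelier libraries 1 to 4 at 60.1, 3.06, 25.8 and 4.39 CPM. The upper chandelier libraries were high throughout, whereas Martinotti libraries split by animal and deep chandelier libraries split within each animal. In PV basket cells the 16 libraries ran from 8.31 through a median of 17.8 to 24.2 CPM, and in long-projecting cells the 9 ran from 6.10 through 9.22 to 19.8 CPM. Interneuron-selective libraries lay between 7.47 and 11.9 CPM and CCK basket libraries between 2.58 and 22.5 CPM. Upper chandelier cells averaged 97.6 ± 58.7 CPM (SD, n = 2) against 20.0 CPM for the mean of the other 6, 4.89-fold (log2 fold change 2.46 ± 0.46 SE, adjusted p = 0.0146). Upper chandelier replicates (56.0 and 139 CPM) overlapped with those of Martinotti cells (17.2 and 76.6 CPM).

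On their shared flow cell, upper chandelier cells had 8.57-fold more Tgfb3 than long-projecting cells, at 97.6 ± 58.7 CPM (n = 2) against 11.4 ± 1.82 CPM (n = 4), with a log2 fold change of 2.93 ± 0.60 (SE, adjusted p = 0.0129), where sex and age cannot be told apart from type. Bmp4 was also higher there, at 14.2 ± 7.16 CPM in upper chandelier and 0.0973 ± 0.195 CPM in long-projecting cells, of which the second rests on 2 counts (adjusted p = 0.0408). Those are 2 of 8 genes, where 2.06% of all genes were higher in upper chandelier cells. The difference in Tgfb3 was at adjusted p = 0.284 without animal 14 and 0.0503 without animal 15, and that in Bmp4 was lost in 11 of 34 settings. Without upper chandelier library 1, Tgfb3 was at 0.0218 and Bmp4 at 0.0576, and without long-projecting library 2 they were at 0.015 and 0.06. Against the mean of the other types, Tgfb3 in upper chandelier cells was at 0.0254 without library 1 and at 0.521 without animal 14. The joint test for Tgfb3 (adjusted p = 0.0098) was at 0.0791 without that animal, which the labels give 2 ages and 1 of whose libraries carries the Ai15 label.

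On the other shared flow cell 0 of the 8 genes passed by edgeR, with 1 at an unadjusted p under 0.05 and 1 called by DESeq2, where 1.68% of all genes were higher in Martinotti than in interneuron-selective cells. Tgfb3 averaged 46.9 ± 42.0 CPM in Martinotti and 9.17 ± 1.21 CPM in interneuron-selective cells (n = 2 each), 5.12-fold, with adjusted p = 0.112. Nog averaged 15.4 ± 21.6 CPM in Martinotti cells and had no count in interneuron-selective cells (adjusted p = 0.281).

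Bmp3 encodes a divergent BMP that opposes the signalling of other BMPs in bone. It had counts in all 9 long-projecting libraries, from 3.99 through a median of 19.8 to 33.2 CPM. The highest of all 46 libraries was CCK basket library 3 at 39.9 CPM, with 0, 0.821 and 0 CPM in CCK basket libraries 1, 2 and 4, and Martinotti libraries 1 and 2 stood at 13.7 and 13.8 CPM, with 0 and 2.94 CPM in libraries 3 and 4. Interneuron-selective libraries 1 to 4 stood at 5.65, 5.95, 1.83 and 0 CPM. PV basket libraries reached 3.23 CPM, upper chandelier libraries 1.09 CPM and deep chandelier libraries 1.38 CPM. Bmp3 was thus present throughout long-projecting cells, high in 1 animal each of CCK basket (19.5 CPM) and Martinotti cells (13.8 CPM), lower in 3 of 4 interneuron-selective libraries, and close to absent from both chandelier types. Long-projecting cells averaged 19.2 ± 6.26 CPM (SD, n = 4) against 3.81 CPM for the other 6 types, 5.03-fold (log2 fold change 3.39 ± 0.74 SE, adjusted p = 0.00707). That call held in all 34 alternative settings, at adjusted p = 0.00876 without long-projecting library 2. Against upper chandelier cells on the same flow cell, the level was 0.418 ± 0.163 CPM in upper chandelier cells, from 3 counts, and 19.2 ± 6.26 CPM in long-projecting cells (adjusted p = 0.089). The joint test (adjusted p = 0.0412) was lost in 13 of 34 settings. Among these, adjusted p was 0.056 without interneuron-selective library 3, 0.0564 without deep chandelier library 4 and 0.0526 without upper chandelier library 2.

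Nog encodes noggin, a secreted antagonist that binds BMP2 and BMP4 tightly. PV basket libraries ran from 45.2 through a median of 104 to 157 CPM, and all 16 held it. Upper chandelier libraries 1 to 5 stood at 4.16, 40.2, 4.36, 47.9 and 74.8 CPM, so that within each animal both low and high libraries occurred. Martinotti libraries stood at 0 and 0.321 CPM in animal 1 and 49.1 and 15.5 CPM in animal 2. Elsewhere 1 CCK basket library held 11.8 CPM, 1 deep chandelier library 7.66 CPM and 4 of 9 long-projecting libraries up to 16.3 CPM, and no interneuron-selective library had a count. Both PV basket replicates (113 and 76.4 CPM) lay above all others, of which the highest was upper chandelier animal 14 at 48.6 CPM. PV basket cells averaged 94.9 ± 26.1 CPM (SD, n = 2) against 10.4 CPM for the other 6 types, 9.16-fold. With interneuron-selective cells at 0, no fitted fold change is given. The test against the other 6 types barely passed (adjusted p = 0.0476), was lost in 21 of 34 settings and stood at 0.327 without animals 7 and 8 and 0.198 without animals 9 and 10. The joint test did not pass (adjusted p = 0.0866). PV basket cells were alone on their flow cell and were the oldest, at 58 to 83 days.

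Grem1 encodes gremlin 1, an antagonist of BMP2, BMP4 and BMP7. It had 105 counts in all, in 15 libraries, and its type means ran from 2.98 ± 4.21 CPM in CCK basket cells (n = 2) to 0 in Martinotti and interneuron-selective cells. CCK basket library 1 held 9.64 CPM and the other 3 CCK basket libraries none. In PV basket cells 7 of 16 libraries held counts, up to 9.93 CPM in library 9 and 5.98 CPM in library 11, the pair in which mural and fibroblast markers were at 121 and 86.6 CPM, though library 1 held 5.6 CPM with those markers at 0. Endothelial and oligodendrocyte precursor markers were also highest, among PV basket libraries, in libraries 9 and 11. The part of any of these cells in the Grem1 level was not tested. PV basket libraries 9 and 11 carry the same index on neighbouring lanes and may not be independent. No type passed for Grem1, and the joint test had adjusted p = 0.233.

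Bmp2 encodes a BMP close to BMP4. It stood at 12.5, 5.13, 8.73, 0 and 18.4 CPM in upper chandelier libraries 1 to 5. CCK basket library 1 held 20.0 CPM and the other 3 CCK basket libraries none. In PV basket cells 12 of 16 libraries held it, from 0 through a median of 1.64 to 17.8 CPM, and in long-projecting cells 3 of 9 did, up to 6.98 CPM. Deep chandelier, Martinotti and interneuron-selective libraries had no Bmp2 count, which allows up to 0.404, 0.362 and 0.968 CPM at 3 counts over the type, for counting error only. Bmp4 and Bmp2 thus stood together in upper chandelier cells, and deep chandelier cells had Bmp4 with no Bmp2 count. The mean in upper chandelier cells was 8.57 ± 1.84 CPM (n = 2), 4.62-fold that of the other 6 types at 1.86 CPM (adjusted p = 0.198), and the joint test had adjusted p = 0.182. In CCK basket cells, Bmp2 and Grem1 were in the same library, library 1.

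Tgfb1, the TGF-beta isoform best known from microglia and immune cells in the brain, was near the detection limit of these libraries. It had 27 counts in all, in 14 of 46 libraries, with type means from 0 in upper chandelier cells to 0.789 ± 1.17 CPM in long-projecting cells (n = 4). Long-projecting library 6 had 8 of the 27 counts, at 4.56 CPM. In deep chandelier cells only library 4 had counts, 3 in number. It was too low to be tested for a difference between types. The 8 microglial markers summed to between 0.766 and 184 CPM in a library.

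Cells of 1 library are not replicates of a type, and their counts behaved accordingly. Among 46 pairs of a library and one of the 9 genes with at least 50 counts, every cell of the library had a count in 22 pairs, and the lowest share of cells with a count was 73.3%. The spread of a gene's counts over cells, relative to that expected if counts were shared out in proportion to each cell's total, had a median ratio of 1.15 (range 0.198 to 3.54), where 1 is sampling noise alone. In deep chandelier library 3, Tgfb2 ran from 2 to 56 counts in 16 cells whose totals ran from 11790 to 503951. In deep chandelier library 4, Gdf10 ran from 3 to 76 counts in 8 cells with totals from 14635 to 546900. In most of these pairs the cells of a library thus followed its level closely, while libraries of the same type could differ from 0 to over 40 CPM, as for Bmp4.

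**Figure D4:**
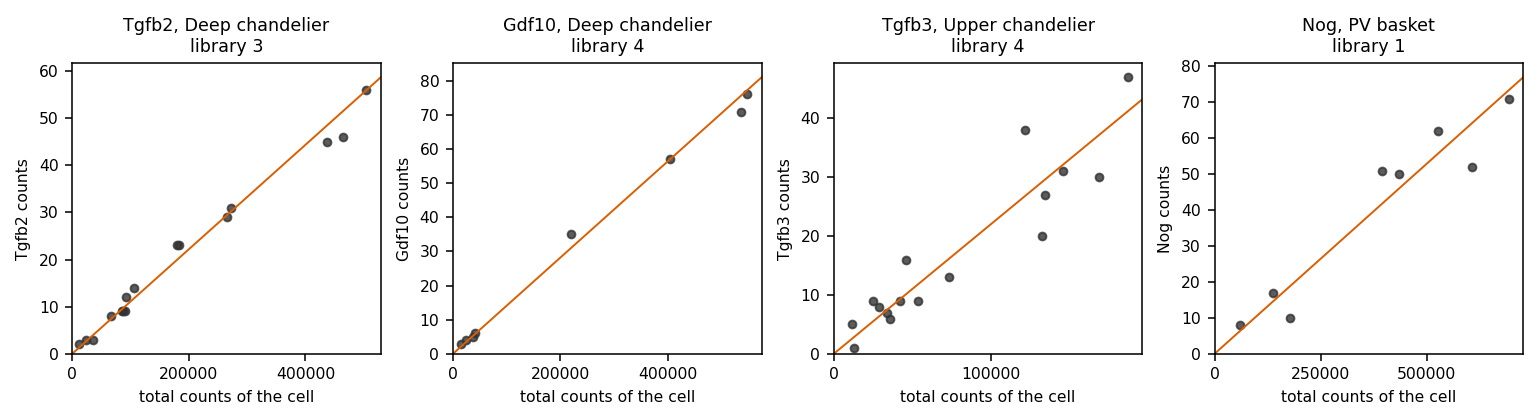
Counts of a gene in each cell (y axis) against the total counts of that cell (x axis) for 4 libraries. Each point is 1 cell and the line is the share of the whole library. The 16 cells for Tgfb2 and the 8 cells for Gdf10 in deep chandelier libraries 3 and 4 lie close to their lines, with dispersion ratios of 0.218 and 0.198.

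Other genes of the pathway were read from 6 lists with 103 genes, of which 75 could be tested and 14 passed the joint test, against 25.0% of all genes. The list members passing were 3 of 9 other ligands, 4 of 14 other antagonists, 2 of 15 receptors and coreceptors, 2 of 14 genes of latency and processing, 0 of 12 intracellular genes and 3 of 11 targets. Higher in a type than in the others by the fit, which averages the other types on the log scale, were 3 list genes in Martinotti cells (3.91% of all genes), 4 in interneuron-selective (5.73%), 10 in CCK basket (5.22%), 2 in PV basket (2.78%), 2 in upper chandelier (1.56%), 7 in deep chandelier (12.3%) and 7 in long-projecting cells (9.71%). Lower were 1 in Martinotti (1.69% of all genes), 0 in interneuron-selective (4.29%), 0 in CCK basket (1.08%), 2 in PV basket (1.11%), 0 in upper chandelier (0.341%), 1 in deep chandelier (6.79%) and 2 in long-projecting cells (3.40%). Of these 41 calls, 3 had a mean CPM on the other side of the mean of the other 6 types: Id2 in CCK basket and upper chandelier cells and Sostdc1 in long-projecting cells. With 1 library left out at a time, 7 of the 8 calls in deep chandelier cells were lost at least once (all but Id2), as were both in upper chandelier cells. Of the 4 calls in interneuron-selective cells 2 were lost without library 3 (Fstl5 at adjusted p = 0.0752 and Id3 at 0.0592), and of the 9 in long-projecting cells 0 were lost without library 2, where all 9 still passed by edgeR. For the 4 Martinotti, 10 CCK basket and 4 PV basket calls no library was left out. Only 23 of the 41 calls were therefore examined in this way. By edgeR 0 of the 8 tested ligand and antagonist genes were called lower in a type, with 4 results at an unadjusted p under 0.05 over the 7 types and 1 called by DESeq2. For genes with few counts in several types, the log-scale fit could hardly give a lower call, so no conclusion is drawn from this. For the list genes, unadjusted p was under 0.05 on the lower side for 0 in interneuron-selective, 4 in CCK basket and 3 in upper chandelier cells, and DESeq2 called 0, 2 and 2 there.

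Among other ligands, the activin subunit genes differed between types. Inhbb, the inhibin beta B subunit, averaged 59.1 ± 0.818 CPM in Martinotti (n = 2), 39.6 ± 23.9 CPM in interneuron-selective (n = 2) and 39.6 ± 9.83 CPM in long-projecting cells (n = 4), each higher than the other types (adjusted p = 0.00937, 0.0236 and 0.00356). Martinotti libraries ran from 0 to 129.5 CPM of Inhbb, with counts in 3 of 4. Interneuron-selective libraries ran from 0 to 128.1 CPM, with counts in 2 of 4, and long-projecting libraries from 14.8 to 65.1 CPM. Inhbb had no count in the 16 PV basket libraries, where it was lower (adjusted p = 0.0224). Inhba, the beta A subunit, was higher in CCK basket cells at 29.8 ± 11.1 CPM (n = 2, adjusted p = 0.00873) and in deep chandelier cells at 21.9 ± 29.2 CPM (n = 2, adjusted p = 0.00624). The deep chandelier level of Inhba came mostly from 1 library at 81.5 CPM, with a median over the 4 of 1.42 CPM, and adjusted p was 0.503 without that library (library 1). Bmp6, a BMP ligand, averaged 20.7 ± 28.3 CPM in PV basket cells (n = 2), with 1 library at 299 CPM and a median of 0.848 CPM, and its joint test, at adjusted p = 0.0231, stood at 0.494 without animals 9 and 10.

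Among other antagonists, CCK basket cells were high in several. Fstl4 and Fstl5, genes named for their follistatin-like domain, averaged 201 ± 73.3 and 372 ± 46.5 CPM in CCK basket cells (n = 2), against 32.7 and 127 CPM over the other types (adjusted p = 0.00849 and 0.00622). Fstl5 was also higher in interneuron-selective cells, at 307.4 ± 65.8 CPM against 138.2 CPM (n = 2, adjusted p = 0.0429). The joint test of Fstl4 was lost in 6 of 34 settings. Sostdc1, a secreted antagonist of BMP and Wnt signals, was higher in interneuron-selective cells at 21.3 ± 10.2 CPM (adjusted p = 0.00102) and in CCK basket cells at 13.0 ± 9.79 CPM (adjusted p = 0.00169), and had no count in Martinotti, PV basket or either chandelier type. In long-projecting cells its fitted change was upward (adjusted p = 0.00798) although the mean, 2.79 ± 1.99 CPM (n = 4), was below the 5.72 CPM of the other 6 types, 4 of which were at 0. Crim1, a membrane protein that binds BMPs, was higher in deep chandelier cells at 94.7 ± 64.3 CPM (n = 2), against 38.8 CPM (adjusted p = 0.0131, and 0.0602 without library 3). Its mean was higher still in upper chandelier cells, at 104.6 ± 12.5 CPM (n = 2) against 37.2 CPM, where it did not pass (adjusted p = 0.0858). Crim1 was lower in long-projecting cells at 4.24 ± 3.76 CPM (n = 4), against 53.9 CPM (adjusted p = 0.0183).

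Receptor genes for both branches had counts in each type. Bmpr1a, Bmpr2, Acvr1 and Acvr2a, which encode BMP and activin receptors, had counts in all 46 libraries, with type means of 35.6 to 70.5, 27.1 to 56.0, 22.0 to 157 and 20.1 to 55.9 CPM. Tgfbr1, Tgfbr2 and Tgfbr3, the TGF-beta receptors and betaglycan, each had their lowest type mean in deep chandelier cells, at 0.925, 2.85 and 3.86 CPM. So did Acvr1b, Acvr1c, Acvr2b, Bmpr1b, Bmpr2 and Rgmb of the same list. Tgfbr1, Tgfbr2 and Tgfbr3 did not pass the joint test (adjusted p = 0.405, 0.0615 and 0.216). In PV basket cells Tgfbr2 was nonetheless called higher by edgeR, at 24 CPM against 4 CPM in the other types (adjusted p = 0.0191). Acvr1 was higher in CCK basket cells at 157 ± 71.8 CPM (n = 2), against 45 CPM (adjusted p = 0.0211), but its joint test was lost in 12 of 34 settings (adjusted p up to 0.16). Rgma, a BMP coreceptor, was higher in CCK basket (72.8 ± 71.6 CPM, adjusted p = 0.00378) and long-projecting cells (43.4 ± 14.7 CPM, adjusted p = 0.00618) and lower in PV basket cells (1.5 ± 1.55 CPM, adjusted p = 0.0359).

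Of the genes that process ligands, Pcsk5, a proprotein convertase, was higher in long-projecting cells at 124 ± 40.3 CPM (n = 4), against 53.6 CPM (adjusted p = 0.000538), and in Martinotti cells at 140 ± 13.1 CPM (n = 2), against 50.9 CPM (adjusted p = 0.00741). In deep chandelier cells it was lower, at 18.6 ± 3.87 CPM against 71.2 CPM (adjusted p = 0.0405, and 0.0729 and 0.0706 without library 2 or 3). Tll1, a protease of the BMP1 family that cleaves the antagonist chordin, was higher in deep chandelier cells at 33.6 ± 32.4 CPM (n = 2), against 11.9 CPM (adjusted p = 0.0209, and 0.0574 and 0.0509 without library 1 or 4). Upper chandelier cells had a similar mean of Tll1, 31.2 ± 0.422 CPM (n = 2) against 12.3 CPM, which did not pass (adjusted p = 0.205), and the joint test was lost in 10 of 34 settings. Of the 12 intracellular genes, Smad3 and the ubiquitin ligase genes Smurf1 and Smurf2 were higher in deep chandelier cells, with means of 8.35, 95.9 and 166 CPM and adjusted p of 0.0452, 0.0371 and 0.0405. Without 1 library these became 0.729 for Smad3 (library 1), 0.761 for Smurf1 (library 4) and 0.825 for Smurf2 (library 2), and 0 of the 12 passed the joint test by edgeR (4 at an unadjusted p under 0.05, and 5 by DESeq2). Type means of Smad1, Smad2, Smad4 and Smad5 lay between 9.96 and 71.4 CPM.

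Among genes known as targets of these signals, Id2, an inhibitor of helix-loop-helix factors, was higher in deep chandelier cells at 1141 ± 901 CPM (n = 2), against 55.7 CPM in the other types (adjusted p = 9.84e-06). Its 4 libraries ran from 23.6 to 2053 CPM. With 1 deep chandelier library left out, adjusted p was at most 0.000216. By the log-scale fit Id2 was also higher in CCK basket cells (adjusted p = 0.00217) and upper chandelier cells (adjusted p = 0.0369, and 0.0614 and 0.0868 without library 1 or 4). Their means went the other way, at 182 ± 80.1 CPM in CCK basket cells against 215.7 CPM in the other 6 types and at 114 ± 48.2 CPM in upper chandelier cells against 226.9 CPM, since the deep chandelier mean is part of both averages. Id2 had no count in Martinotti cells, where it was lower (adjusted p = 0.00284). Id1, of the same family, went another way, at 36.7 ± 24.1 CPM in long-projecting cells (n = 4), against 1.5 CPM (adjusted p = 1.95e-05), and had no count in deep chandelier or interneuron-selective cells. Pmepa1, a feedback inhibitor of TGF-beta signalling, was higher in long-projecting cells at 50.7 ± 19.1 CPM (n = 4), against 29.0 CPM (adjusted p = 0.0326). Its means were higher in interneuron-selective cells, at 63.1 ± 7.00 CPM (n = 2), and in Martinotti cells, at 55.2 ± 5.18 CPM (n = 2), where it did not pass (adjusted p = 0.0794 and 0.126). The joint test of Pmepa1 was lost in 8 of 34 settings.

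The genes whose levels ran most like those of each ligand or antagonist were sought among 11500 genes by Pearson's r of log2(CPM + 1) over the 16 replicates, which share type, flow cell and library preparation, and are given as a description. For Tgfb2 they were Scrg1 (r = 0.893), Gdf10 (0.883) and Pard3b (0.842). For Gdf10 they were Vcan, which encodes the matrix proteoglycan versican (0.913), Ssx2ip (0.907) and Dcp1b (0.906), each highest in deep chandelier cells. For Bmp3 they included Wnt2, a Wnt ligand gene (0.953, Spearman's rho 0.965), and Tubb2a, a tubulin gene (0.884). The likeness of Wnt2 to Bmp3 was closest by both measures, and Wnt2 averaged 82.1 CPM in long-projecting cells. For Tgfb3 they were Scube1 (0.877), Nlrp4c (0.875) and Dusp10 (0.812), each highest in upper chandelier cells. For Bmp4 they were Rnu12 (0.886), Trps1 (0.881) and Fras1 (0.872), and for Nog Gpr149 (0.882), Esrrg (0.855) and Rpa1 (0.839). Gdf10 and Tgfb2 correlated by rank at only 0.309, so that their r rests on the deep chandelier replicates.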

How the data were processed

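RNA of single neurons was amplified linearly in 2 rounds and sequenced from polyadenylated ends, per the labels' protocols. The submitters' processing notes name Bowtie 0.12.7 and the mm9 build. The table deposited by the authors holds expected counts per gene and cell, of which 4.07% of the values above 0 were not whole (tolerance 1e-06). The sources used here do not say whether reads or random tags were counted, and floors therefore cover counting error alone. The number of columns of values that could not be tied to a sample was 0.

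Counts were summed over cells into libraries (530927 to 4568242 counts) and into 16 replicates, and rounded. Tests were run with edgeR 4.0.16 under R 4.3.3. TMM scaling, filterByExpr by type (15533 genes kept), the robust quasi-likelihood test and Benjamini-Hochberg adjustment over all genes tested at 0.05 were used in 1 fit over 7 types, with 9 residual degrees of freedom and a common dispersion of 0.381. Of 190 pairs of libraries of a type, 8 differed by little more than sampling noise (ratio of observed to expected squared difference 1.25 to 1.93, the others from 5.77). All 8 were PV basket pairs, so animals 7 and 8, and 9 and 10, were each counted as 1 sample. By the labels, both libraries of each of these pairs carry the same index on neighbouring lanes. Whether such a pair is 1 library sequenced again was not tested. The labels number 18 animals and the series description mentions 4. Numbers in sample titles only count libraries.

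Folds are ratios of mean CPM (the type over the mean of the other 6 type means), and fitted log2 fold changes average the other types on the log scale, so both can differ. They are given where all types have counts. The 9 genes were always named, list genes if they passed the joint test with a mean of at least 20 CPM in a type, and the 3 most alike genes by r for genes with at least 10 CPM. Members, lists and tests were chosen with earlier results of these data known. Alternatives were DESeq2 1.42.0 and its size factors, no filter, 18 animals, a spread set for each type (limma 3.58.1), 46 libraries with and without a replicate block, each replicate left out and, chosen after seeing the data, 11 libraries left out 1 at a time. Promoter sequences are from RefSeq (GRCm38.p6), where 5 of the 9 genes matched. Because that build is not the authors', no other coordinates are given. Of the genes that the rule on like patterns names, 1 is not reported here.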

Additional observations from a re-analysis of the deposited data

Results flagged for a closer look

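In 25 groups of 4 to 10 libraries with at least 20 counts of a gene, a single library stood far from the others of its type in 6, by the gap to its nearest neighbour over the whole range against Dixon's critical value. Chance flags about 1 in 20 groups of normally distributed values, and the share for skewed counts with many zeros, as here, was not measured. Of these, 4 were in CCK basket cells. Bmp2 was at 20.0 CPM and Grem1 at 9.64 CPM in CCK basket library 1, with no count in libraries 2 to 4. Bmp3 was at 39.9 CPM in CCK basket library 3, where endothelial markers summed to 119 CPM, against 28.2 CPM or less in the other 3. Oligodendrocyte precursor (67.6 CPM), mural and fibroblast (23.6 CPM) and excitatory neuron markers (380.8 CPM) were also highest of the CCK basket libraries there. Microglial, astrocyte and oligodendrocyte markers were not. The part of such cells in the Bmp3 level was not tested. Nog was at 11.8 CPM in CCK basket library 4, with no count in the others. Tgfb2 was at 16.5 CPM in upper chandelier library 5, against 3.42 CPM or less in libraries 1 to 4. Grem1 was at 6.98 CPM in long-projecting library 4, against 2.22 CPM or less in the other 8.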

How the results depend on the processing

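Of the 7 calls of a gene in a type, those of Tgfb2, Gdf10 and Bmp4 in deep chandelier cells and of Bmp3 in long-projecting cells kept their direction and side of the threshold in all 34 alternative settings, that of Tgfb3 in 33, of Bmp4 in upper chandelier cells in 22 and of Nog in 13. For Grem1 in CCK basket cells adjusted p ran from 0.0704 to 1 with a replicate left out, and the direction reversed without replicate 5 (adjusted p = 1, log2 fold change -3.01), since all CCK basket counts came from that animal. Of the 9 genes, 5 passed the joint test, 3 to 6 with a replicate left out (3 without animal 14) and 3 without deep chandelier library 4. Counts of all genes called moved more. With 46 libraries and no replicate block, 8677 genes passed the joint test against 3888, and calls were 1879 against 870 for Martinotti, 2743 against 1556 for interneuron-selective, 1792 against 979 for CCK basket, 3997 against 604 for PV basket, 989 against 296 for upper chandelier, 4767 against 2967 for deep chandelier, 3071 against 2036 for long-projecting cells, 1304 against 480 for Martinotti against interneuron-selective and 1591 against 633 for upper chandelier against long-projecting cells. With the title number as replicate block, PV basket gave 1728, upper chandelier 480 and upper chandelier against long-projecting cells 977, and 7 of the 9 genes passed the joint test. Same-numbered libraries of different types did not deviate together (median r -0.002 over 91 pairs, -0.054 to 0.036), so they share only a number. With 18 labelled animals the joint test gave 6467, Martinotti 1433, CCK basket 1513, PV basket 2387, upper chandelier 533 and Martinotti against interneuron-selective 900. With DESeq2 the joint test gave 7213, Martinotti 1733, interneuron-selective 2499, CCK basket 1625, PV basket 1059, upper chandelier 546, Martinotti against interneuron-selective 1534 and upper chandelier against long-projecting 1282. With a spread set for each type, Martinotti gave 365, interneuron-selective 508, CCK basket 536, PV basket 2321, upper chandelier 538, deep chandelier 469, long-projecting 3264, Martinotti against interneuron-selective 104 and upper chandelier against long-projecting 1925. With a replicate left out the ranges were 2560 to 5229 for the joint test, 316 to 1577 for Martinotti, 756 to 2361 for interneuron-selective, 535 to 1569 for CCK basket, 68 to 966 for PV basket, 47 to 448 for upper chandelier, 2046 to 3299 for deep chandelier, 1161 to 2671 for long-projecting, 271 to 855 for Martinotti against interneuron-selective and 173 to 912 for upper chandelier against long-projecting cells. A lone remaining sample of a type is then assumed to vary like the other groups. The cause of these shifts was not tested. Size factors in place of TMM shifted the median log2 fold change by at most 0.093 and turned the sign of 0 of the 8 genes tested. With 2 replicates in most types, p-values measure the spread between these samples only, and Tgfb1, Grem1 and Bmp2 are limited by their few counts.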

Other observations

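In 3 library and gene pairs the counts of cells followed the cells' totals more tightly than sampling noise gives. The ratio of observed to expected spread was 0.218 for Tgfb2 in deep chandelier library 3 (322 counts in 16 cells), 0.208 for Gdf10 in deep chandelier library 1 (120 counts in 14 cells) and 0.198 for Gdf10 in deep chandelier library 4 (257 counts in 8 cells). At the other end, Tgfb3 in upper chandelier library 1 had a ratio of 3.54 (93 counts in 16 cells).

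Deep chandelier library 4, which held 1918 CPM of Vip, had 75.2 CPM of Tgfb2, 141 CPM of Gdf10 and 43.9 CPM of Bmp4. The 4 CCK basket libraries, with 3581 CPM or more of Vip, had at most 2.46 CPM of Tgfb2, 1.27 CPM of Gdf10 and no Bmp4 count.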
